A study of Mus musculus with 12 samples.

Results

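Expression of 10 genes of the endoplasmic reticulum (ER) stress response was described across 12 RNA-sequencing libraries of primary tubular epithelial cells from mouse kidney cortex. The genes were taken by name, whatever their values, from a table of 44792 gene symbols: Hspa5, Pdia4, Sdf2l1, Dnajb9, Herpud1, Xbp1, Atf4, Ddit3, Trib3 and Chac1. All 10 were found and all 10 passed the filter on low counts. The libraries came from C57BL/6 mice, 3 libraries to each of 4 genotypes. Wild-type mice (WT) carried Setd2fl/fl without Cre. Setd2-KO mice carried Ksp1.3/cre with Setd2fl/fl, MYC-OE mice carried Ksp1.3/cre with MYCfl/fl, and MYC-OE Setd2-KO mice carried Ksp1.3/cre with both floxed alleles, so that the floxed Setd2 allele was shared by every group other than MYC-OE. Ksp-cadherin is a protein of tubular epithelium, and its promoter limits recombination to the cells in which it is active. The sources used here do not give the sex or age of the mice.

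Proteins that fail to fold in the ER are sensed by the membrane proteins IRE1, PERK and ATF6, and the programme that follows is the unfolded protein response. IRE1 splices the messenger RNA of Xbp1, and the spliced form encodes a transcription factor for chaperones and degradation factors. PERK slows translation while Atf4 messenger RNA is translated more, and ATF4 then drives Ddit3, which encodes CHOP, and with it Trib3 and Chac1. ATF4 is also raised by other kinases, such as GCN2 when amino acids are short. The tubular epithelium of the kidney makes large amounts of membrane transporters and receptors, all of which pass through the ER.

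The promoters of these genes carry known binding elements, and those with a match are shown because the arms of the response act through different elements. All 10 genes had an entry in the RefSeq promoter table of GRCm38.p6, which holds 250 bases before to 50 bases after each gene's start. Both strands were searched for the ER stress element (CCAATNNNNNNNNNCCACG), its second form (ATTGGNCCACG), the unfolded protein response element (TGACGTGG) and the ATF4 and C/EBP element (TGATGNAA). The ER stress element was found in 1 member, Hspa5, from base -65 to base -47 relative to the start, and in 0.119% of 32851 promoters. The second form was found in Herpud1 alone of the members, from -52 to -42, and in 0.0365% of promoters. The ATF4 and C/EBP element was found on the opposite strand in 3 members, at -193 to -186 in Chac1, at -112 to -105 in Herpud1 and at 15 to 22 in Trib3, and in 3.97% of promoters. The unfolded protein response element was found in 0 of the 10 members and in 0.676% of promoters. Positions count from the RefSeq start, which lies inside the span that the deposited table gives for Herpud1 and Ddit3 and at its edge for the other 8 members. The stretches below are written in the direction of the gene, with the matched elements in capitals. They lie at chr2:34771974-34772093 on the plus strand for Hspa5, chr8:94386292-94386411 on the plus strand for Herpud1, chr2:152344011-152344130 on the minus strand for Trib3 and chr2:119350993-119351112 on the plus strand for Chac1.
Hspa5: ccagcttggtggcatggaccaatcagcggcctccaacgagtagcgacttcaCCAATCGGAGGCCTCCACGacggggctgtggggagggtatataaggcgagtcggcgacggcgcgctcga
Herpud1: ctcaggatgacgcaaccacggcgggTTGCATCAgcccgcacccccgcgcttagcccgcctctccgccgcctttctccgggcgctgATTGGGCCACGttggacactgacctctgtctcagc
Trib3: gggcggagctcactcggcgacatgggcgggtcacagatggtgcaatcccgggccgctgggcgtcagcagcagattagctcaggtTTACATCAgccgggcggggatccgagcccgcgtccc
Chac1: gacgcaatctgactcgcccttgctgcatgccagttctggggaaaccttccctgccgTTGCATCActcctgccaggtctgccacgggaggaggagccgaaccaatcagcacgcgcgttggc
A match describes these letters only; no binding was measured.

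Total counts ranged from 8889185 to 44227191 per library, with the lowest in MYC-OE Setd2-KO. The libraries fell into 3 sets by mitochondrial ribosomal RNA, given here as CPM, a gene's reads relative to all reads of its library, and the sets cut across the genotypes. A first set of 5 libraries (the 3 WT libraries, Setd2-KO 1 and Setd2-KO 2) stood at 15015.6 to 19622.1 CPM. A second set of 3 (MYC-OE 1, MYC-OE Setd2-KO 1 and MYC-OE Setd2-KO 2) stood at 974.8 to 2909.2 CPM, and the third set of 4 (Setd2-KO 3, MYC-OE 2, MYC-OE 3 and MYC-OE Setd2-KO 3) stood at 0.5 to 1.3 CPM. No set held both WT and MYC-OE libraries, so MYC-OE against WT and the sets cannot be told apart within a set. The sources used here do not say whether all libraries were counted with the same annotation and settings. Genes such as Manf also separate the sets, so differences between libraries of different sets, which include every value of MYC-OE against WT, carry whatever sets them apart, and its part was not tested. All levels from here on are CPM after TMM scaling (trimmed means of M values), which adjusts the library totals. Xist, which is expressed from the inactive X chromosome of females, stood at 480 CPM in MYC-OE Setd2-KO 1, 906 CPM in Setd2-KO 3 and 1840 CPM in MYC-OE Setd2-KO 3, and at most at 1.01 CPM in the others. Ddx3y, a gene of the Y chromosome, stood at 0 CPM in these 3 libraries and at 34.5 to 95.6 CPM in the others. No WT or MYC-OE library was among the 3, so every comparison except MYC-OE against WT was unbalanced in such libraries. The part of sex in the levels was not tested. Summed CPM of 12 proximal tubule markers was 40400 to 50230 in WT, 13370 in Setd2-KO 3, 9443 in MYC-OE 2, 7798 in MYC-OE 3 and 1652 in MYC-OE Setd2-KO 3, which are the 4 libraries of the third set. In the last of these the phosphate transporter Slc34a1, which defines the proximal tubule, stood at 16.6 CPM against 7290 to 9270 CPM in WT. The tubular marker Cdh16, the gene of Ksp-cadherin, stood at 342 CPM there against 1230 to 1550 CPM in WT, and Epcam, a marker of epithelium, at 172 CPM against 45.4 to 53.2 CPM. The targeted genes separated the genotypes little: Setd2 stood at 70.9 to 86.4 CPM in WT, 58.8 to 78.9 CPM in Setd2-KO, 56.7 to 62.1 CPM in MYC-OE and 51.1 to 80.5 CPM in MYC-OE Setd2-KO. Counts outside the floxed exons remain after recombination, so the sum over the gene does not check the deletion. Myc stood at 2.27 to 6.49 CPM in 11 libraries and at 13.98 CPM in MYC-OE Setd2-KO 3. The sources used here do not say whether transcripts of the MYC construct were counted under that symbol.

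None of the 10 genes passed the threshold (edgeR quasi-likelihood test, adjusted p under 0.05 over 17019 genes) in any of the 5 comparisons. What the libraries do show is a wide spread between libraries of the same genotype, and it differs by gene. MYC-OE Setd2-KO 3 was the highest of the 12 libraries for 6 genes (Dnajb9, Herpud1, Atf4, Ddit3, Trib3 and Chac1) and the lowest for 2 (Pdia4 and Sdf2l1). MYC-OE 3 was the highest for Sdf2l1 and Xbp1 and the lowest for Dnajb9 and Herpud1, and MYC-OE 2 was next to it in each of these 4 genes. Levels below are likewise TMM-scaled CPM, and fold changes are on the log2 scale with their standard error (SE).

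**Figure D1:**
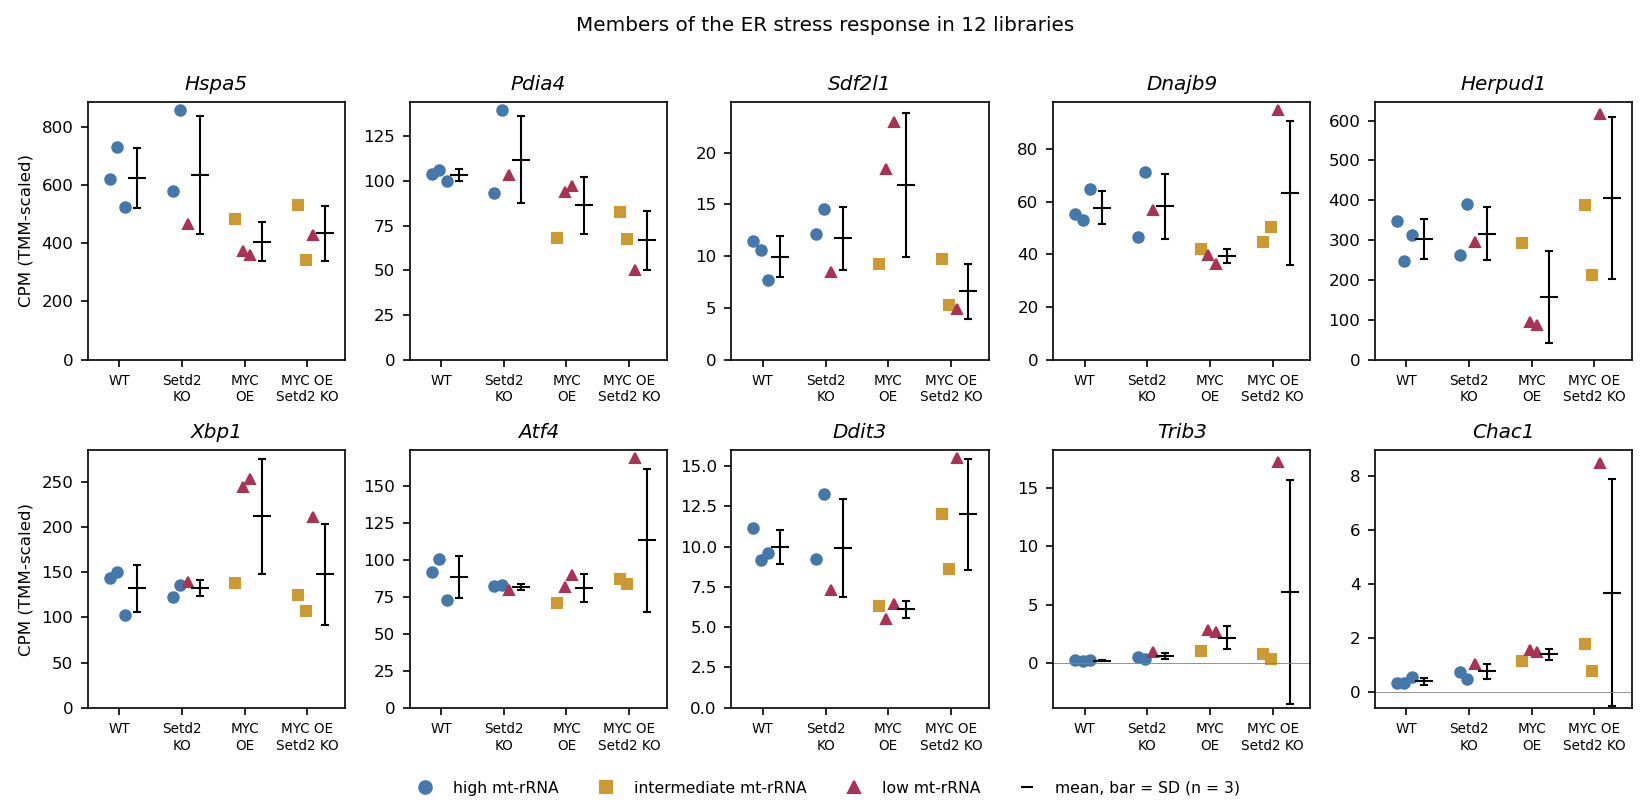
TMM-scaled CPM of the 10 genes (vertical axes, linear) in the 3 libraries of each genotype; symbols give the set of the library by mitochondrial ribosomal RNA, and the black mark and bar are the mean and SD of 3 libraries. MYC-OE Setd2-KO 3 lies far above its group in Trib3 (17.2 CPM) and Chac1 (8.5 CPM), and MYC-OE 2 and MYC-OE 3 lie apart from MYC-OE 1 in Herpud1, Xbp1 and Sdf2l1.

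The order of the genes in wild-type cells was set by dividing CPM by the transcript length that the table gives. Hspa5 led with 239 ± 39.4 CPM per kb (SD, n = 3), followed by Herpud1 at 134 ± 22.3. Xbp1 (58.7 ± 11.6), Atf4 (51.3 ± 8.30) and Pdia4 (41.6 ± 1.29) came next, and each overlapped its neighbour in that order. Dnajb9 stood at 30.9 ± 3.30 CPM per kb. Sdf2l1 (8.96 ± 1.79) and Ddit3 (6.77 ± 0.706) overlapped each other. Chac1 (0.251 ± 0.0814) and Trib3 (0.102 ± 0.0191) rested on few reads, with 6 to 19 reads and 3 to 8 reads per WT library. In Setd2-KO the order was the same. In MYC-OE, Xbp1 (94.2 ± 28.3 CPM per kb) stood above Herpud1 (69.8 ± 51.5), but the libraries of these genes overlapped. In MYC-OE Setd2-KO, Herpud1 (180 ± 89.7) and Hspa5 (166 ± 36.2) led, again with overlap.

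Hspa5 encodes BiP, the abundant chaperone that binds unfolded proteins and keeps the stress sensors inactive; the gene lies on chromosome 2 from base 34772090 to 34776529 (GRCm38, plus strand). WT libraries 1 to 3 held 620.5, 729.2 and 523.1 CPM, and Setd2-KO libraries held 577.2, 857.7 and 464.7 CPM. MYC-OE libraries held 482.1, 373.0 and 360.0 CPM, and MYC-OE Setd2-KO libraries held 531.5, 342.5 and 428.1 CPM. All 3 MYC-OE libraries lay below all 3 WT libraries, and the other pairs of groups overlapped. In MYC-OE against WT its log2 fold change was -0.62 ± 0.30 (edgeR adjusted p = 0.161). With plain library totals in place of TMM it was 0.12, since that scaling moved the median of all genes in this comparison from 0 to 0.76.

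Pdia4 encodes a protein disulfide isomerase of the ER lumen, and lies on chromosome 6 from base 47796141 to 47813512 (minus strand), where it holds the microRNA gene Mir704. Its WT libraries were close together at 103.6, 106.1 and 99.7 CPM, and Setd2-KO libraries held 93.0, 139.5 and 103.2 CPM. MYC-OE libraries held 68.1, 94.0 and 97.0 CPM, and MYC-OE Setd2-KO libraries held 82.7, 67.2 and 50.1 CPM. The MYC-OE Setd2-KO libraries all lay below the Setd2-KO libraries, with a log2 fold change of -0.75 ± 0.23 (edgeR unadjusted p = 0.00889, adjusted p = 0.504). Its lowest library, MYC-OE Setd2-KO 3, is also the one with the fewest proximal tubule transcripts, and the part of that in the Pdia4 level was not tested. In bulk samples, fewer cells of a type and less RNA per cell cannot be told apart.

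Sdf2l1 encodes an ER protein that forms a complex with the co-chaperone ERdj3, and lies on chromosome 16 from base 17130138 to 17132383 (minus strand). WT libraries held 11.5, 10.6 and 7.69 CPM, and Setd2-KO libraries held 12.2, 14.5 and 8.51 CPM. MYC-OE libraries held 9.28, 18.4 and 23.0 CPM, and MYC-OE Setd2-KO libraries held 9.68, 5.30 and 4.88 CPM. MYC-OE 2 and MYC-OE 3 were the highest of all 12, MYC-OE 1 lay inside the WT range, and the MYC-OE and MYC-OE Setd2-KO groups overlapped through library 1 of each. These groups differed by a log2 fold change of -1.35 ± 0.40 (MYC-OE Setd2-KO against MYC-OE, edgeR unadjusted p = 0.00692, adjusted p = 0.197). Without MYC-OE 1, Sdf2l1 passed the threshold at -1.67 ± 0.36 (edgeR adjusted p = 0.0471), where 2.48% of all genes tested did. Within the second set this difference was -0.37 (2 libraries against 1) and within the third set -2.05 (1 library against 2). It was -0.33 without the 4 libraries of the third set, which leaves MYC-OE 1 alone in its group. Between MYC-OE and WT, Sdf2l1 differed by 0.77 ± 0.40 (edgeR adjusted p = 0.182). Without those 4 libraries, and so with MYC-OE 1 alone against WT, it differed by -0.051.

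Dnajb9 encodes ERdj4, a co-chaperone of BiP and a target of XBP1, and lies on chromosome 12 from base 44205897 to 44210068 (minus strand). WT libraries held 55.3, 53.1 and 64.7 CPM, and Setd2-KO libraries held 46.6, 71.3 and 56.9 CPM. MYC-OE libraries held 42.0, 39.6 and 36.5 CPM, and MYC-OE Setd2-KO libraries held 44.8, 50.2 and 94.8 CPM. The MYC-OE libraries lay close together and below every other library of the series. The log2 fold change was -0.55 ± 0.28 against WT (edgeR adjusted p = 0.173) and 0.68 ± 0.28 in MYC-OE Setd2-KO against MYC-OE (edgeR unadjusted p = 0.0327, adjusted p = 0.332). Without MYC-OE Setd2-KO 3 the second of these was 0.26, and with plain library totals the first was 0.21.

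Herpud1 encodes a membrane protein that gathers the machinery of ER-associated degradation, and lies on chromosome 8 from base 94386118 to 94395366 (plus strand). It is the member whose promoter above holds both a stress element and an ATF4 element. WT libraries held 347.9, 248.6 and 313.3 CPM, and Setd2-KO libraries held 263.6, 390.6 and 294.7 CPM. MYC-OE libraries held 291.9, 93.7 and 87.6 CPM, and MYC-OE Setd2-KO libraries held 388.0, 213.2 and 617.3 CPM. MYC-OE 1 lay inside the WT range, whereas MYC-OE 2 and MYC-OE 3 were the lowest of all 12 libraries and MYC-OE Setd2-KO 3 the highest. The log2 fold change was -0.94 ± 0.50 in MYC-OE against WT (edgeR adjusted p = 0.195). Without MYC-OE 1, Herpud1 passed the threshold in that comparison at -1.72 ± 0.42 (edgeR adjusted p = 0.0247), where 24.8% of all genes tested did. Its difference was -0.015 without the libraries of the third set, which leaves MYC-OE 1 alone in its group. Between MYC-OE Setd2-KO and MYC-OE it was 1.36 ± 0.51 (edgeR unadjusted p = 0.0223, adjusted p = 0.291). Without MYC-OE 1 this difference passed the threshold at 2.15 ± 0.43 (edgeR adjusted p = 0.0407), where 2.48% of all genes tested did. Within the second set it was -0.02 (2 libraries against 1), and within the set lowest in mitochondrial ribosomal RNA 2.77 (1 library against 2).

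Xbp1 lies on chromosome 11 from base 5520641 to 5525993 (plus strand), and the counts do not separate its spliced from its unspliced messenger RNA. WT libraries held 143.5, 150.1 and 102.1 CPM, and Setd2-KO libraries held 122.1, 135.6 and 139.3 CPM. MYC-OE libraries held 138.3, 243.6 and 252.9 CPM, and MYC-OE Setd2-KO libraries held 124.2, 106.7 and 211.0 CPM. The 3 highest libraries were MYC-OE 3, MYC-OE 2 and MYC-OE Setd2-KO 3, while Setd2-KO 3, the other library of the third set, lay inside the WT range. MYC-OE differed from WT by a log2 fold change of 0.68 ± 0.31 (edgeR adjusted p = 0.14). It was 0.93 ± 0.30 without MYC-OE 1 (edgeR adjusted p = 0.0484), where 24.8% of all genes tested passed the threshold. The difference was 0.11 without the libraries of the third set, which leaves MYC-OE 1 alone.

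XBP1 is also the factor that plasma cells need for secretion, and the plasma cell transcripts Igj and Mzb1 were high in libraries that were high in Xbp1. Igj, the joining chain of secreted immunoglobulin, stood at 1870 CPM in MYC-OE 2, 1690 CPM in MYC-OE 3 and 514 CPM in MYC-OE Setd2-KO 3, and at 1.37 to 3.33 CPM in WT. It also stood at 32 CPM in MYC-OE 1 and 42.3 CPM in Setd2-KO 3, where Xbp1 lay inside the WT range. Mzb1, an ER protein of plasma cells, stood at 46.1 CPM in MYC-OE 2, 37.9 CPM in MYC-OE 3 and 5.37 CPM in MYC-OE Setd2-KO 3. It stood at 0.598 to 1.69 CPM in the libraries of WT and Setd2-KO. Over 17 plasma cell and B cell markers, summed CPM was 11.8 to 20.8 in WT, 20.0 to 47.9 in Setd2-KO, 259.5 to 2048 in MYC-OE and 95.7 to 531.1 in MYC-OE Setd2-KO, with at most 9 markers at 0 in a library. The list did not move as a whole: Igkc, the kappa light chain of immunoglobulin, stood at 0 in all 4 libraries of the third set, at 165 CPM in MYC-OE 1 and at 3.05 to 6.77 CPM in WT. Igj made up most of the sum in each library of the third set. It was 1870 of 2048 CPM in MYC-OE 2 and 1690 of 1812 CPM in MYC-OE 3, with 6 markers at 0 in each. It was 514 of 531.1 CPM in MYC-OE Setd2-KO 3 and 42.3 of 47.9 CPM in Setd2-KO 3, with 8 and 9 at 0. The median difference from the WT mean over the list was 3.76 in MYC-OE 2, 2.76 in MYC-OE 3 and -1.54 in MYC-OE Setd2-KO 3. Of the 15 that were tested, 6 rose in MYC-OE against WT. Markers of macrophages (37.2 to 58.5 CPM in WT, 147.3 to 1319 CPM in MYC-OE) and of dividing cells (10.9 to 15.7 CPM in WT, 35.0 to 154.1 CPM in MYC-OE) were highest in the same pair of MYC-OE libraries. Their part in the levels of Xbp1, Sdf2l1 and Herpud1 was not tested.

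**Figure D2:**
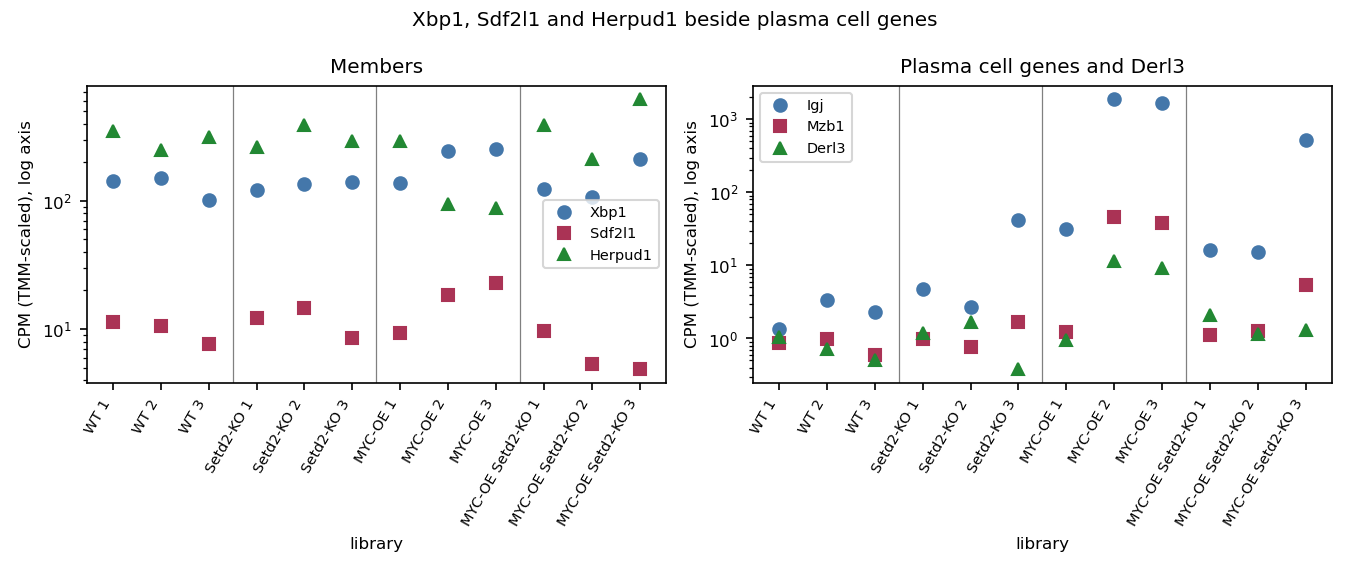
TMM-scaled CPM on log axes in the 12 libraries, with Xbp1, Sdf2l1 and Herpud1 on the left and the plasma cell genes Igj and Mzb1 with Derl3 on the right; each point is 1 library. MYC-OE 2 and MYC-OE 3 are highest for all 3 genes on the right and for Xbp1 and Sdf2l1, and lowest for Herpud1.

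Atf4 lies on chromosome 15 from base 80255184 to 80257545 (plus strand), and much of its control is at translation, which messenger RNA counts do not measure. WT libraries held 92.2, 101.0 and 72.9 CPM, and Setd2-KO libraries held 82.2, 83.5 and 80.0 CPM. MYC-OE libraries held 71.1, 81.9 and 89.9 CPM, and MYC-OE Setd2-KO libraries held 87.2, 83.8 and 169.2 CPM. Atf4 had the tightest group of any member, with a coefficient of variation of 2.14% in Setd2-KO, and 11 of the 12 libraries lay between 71.1 and 101.0 CPM. Every MYC-OE Setd2-KO library lay above every Setd2-KO library, by a log2 fold change of 0.47 ± 0.27 (edgeR adjusted p = 0.601), which was 0.039 without MYC-OE Setd2-KO 3.

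Ddit3 lies on chromosome 10 from base 127290756 to 127296288 (plus strand), where its span overlaps that of the methionyl-tRNA synthetase gene Mars. WT libraries held 11.1, 9.16 and 9.59 CPM, and Setd2-KO libraries held 9.22, 13.3 and 7.31 CPM. MYC-OE libraries held 6.33, 5.497 and 6.47 CPM, and MYC-OE Setd2-KO libraries held 11.99, 8.58 and 15.5 CPM. The 3 MYC-OE libraries were the lowest of the series and overlapped with no other group. The log2 fold change was -0.71 ± 0.30 in MYC-OE against WT (edgeR unadjusted p = 0.0371, adjusted p = 0.121) and 0.98 ± 0.30 in MYC-OE Setd2-KO against MYC-OE (edgeR unadjusted p = 0.0078, adjusted p = 0.204). The first was 0.057 with plain library totals and 0.006 with a term for the sets. The second had the same sign within the second set (0.67) and within the third set (1.36), and it passed the threshold with the set term, at 1.04 ± 0.25 (edgeR adjusted p = 0.0439), where 5.51% of genes did. Mars stood at 39.4 to 52.4 CPM in all 12 libraries, and the sources used here do not say how reads in the shared span were assigned.

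Trib3 encodes a pseudokinase that is raised by ATF4 and CHOP and holds both in check; it lies on chromosome 2 from base 152337425 to 152344060 (minus strand). WT libraries held 0.234, 0.164 and 0.228 CPM (6, 3 and 8 reads), and Setd2-KO libraries held 0.563, 0.348 and 0.927 CPM (16, 12 and 17 reads). MYC-OE libraries held 1.05, 2.81 and 2.63 CPM (20, 64 and 67 reads). MYC-OE Setd2-KO libraries held 0.770, 0.378 and 17.2 CPM (7, 3 and 313 reads). Both Setd2-KO and MYC-OE lay wholly above WT, and 1 of the MYC-OE Setd2-KO libraries stood 45.4 times above another. The log2 fold change was 3.33 ± 1.22 in MYC-OE against WT (edgeR unadjusted p = 0.0205, adjusted p = 0.092), and it stayed between 2.32 and 4.15 over 15 other settings. In MYC-OE Setd2-KO against MYC-OE it was 1.51 ± 1.098 (edgeR adjusted p = 0.638), and -1.92 without MYC-OE Setd2-KO 3. In MYC-OE Setd2-KO against Setd2-KO it was 3.34 ± 1.19 (edgeR adjusted p = 0.505), and -0.094 without that library.

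Chac1 encodes an enzyme that breaks down glutathione and is raised by ATF4; it lies on chromosome 2 from base 119351242 to 119354326 (plus strand). WT libraries held 0.313, 0.327 and 0.541 CPM (8, 6 and 19 reads), and Setd2-KO libraries held 0.739, 0.494 and 1.04 CPM (21, 17 and 19 reads). MYC-OE libraries held 1.16, 1.54 and 1.49 CPM (22, 35 and 38 reads), and MYC-OE Setd2-KO libraries held 1.76, 0.757 and 8.5 CPM (16, 6 and 155 reads). As for Trib3, the MYC-OE libraries all lay above WT and MYC-OE Setd2-KO 3 stood apart from the rest. In MYC-OE against WT the log2 fold change was 1.80 ± 0.76 (edgeR unadjusted p = 0.039, adjusted p = 0.124), between 1.55 and 2.58 over 15 other settings. In MYC-OE Setd2-KO against Setd2-KO it was 2.30 ± 0.76 (edgeR unadjusted p = 0.0124, adjusted p = 0.504), and 0.72 without MYC-OE Setd2-KO 3.

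**Figure D3:**
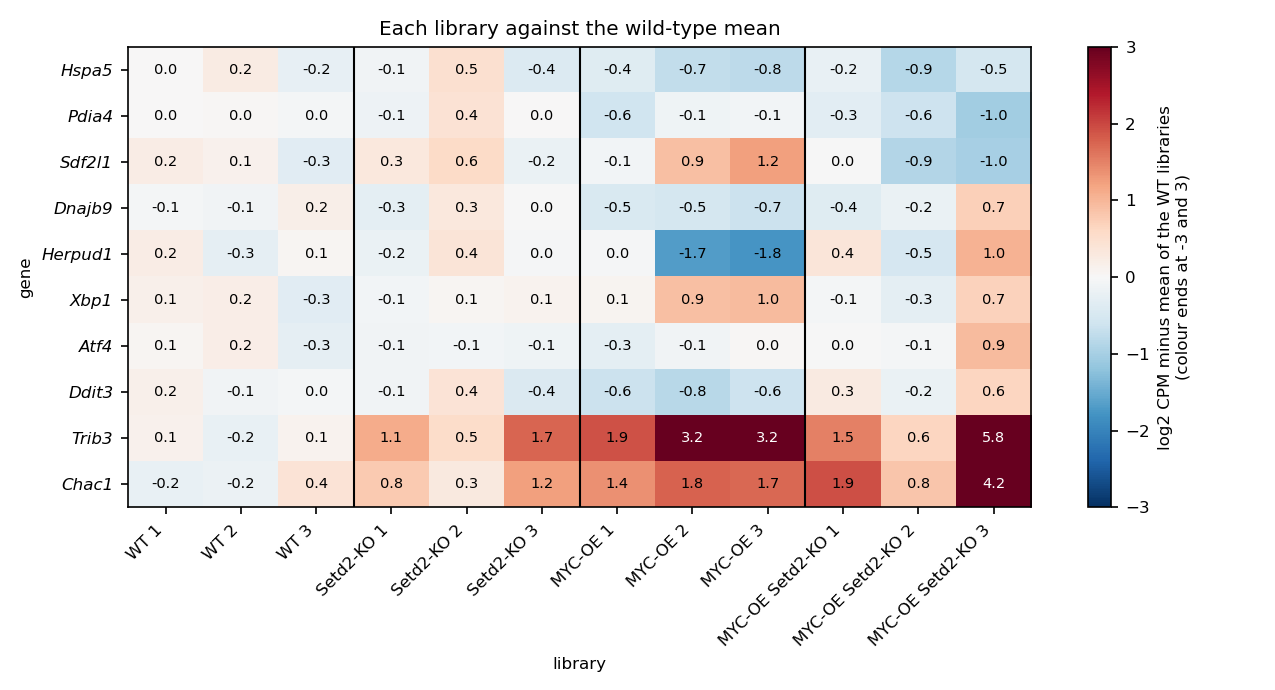
Difference of each library from the mean of the 3 WT libraries, in log2 of TMM-scaled CPM plus 0.1, for the 10 genes (rows) and 12 libraries (columns); numbers are the differences, and colours end at the values given beside the bar. MYC-OE Setd2-KO 3 reaches 5.8 for Trib3 and 4.2 for Chac1 with Sdf2l1 and Pdia4 at -1.0, and MYC-OE 2 and MYC-OE 3 stand near -1.7 and -1.8 for Herpud1.

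Setd2-KO against WT asks what loss of Setd2 does on its own, although these groups also differ by the presence of Ksp1.3/cre. None of the 10 members was called by edgeR, DESeq2 or limma-voom. Of all 17019 genes, 0% were called by edgeR and 0.335% by DESeq2. At an unadjusted p under 0.05 there were 0 members, against 2.91% of all genes. Trib3 was the only member whose libraries did not overlap between the groups, against 6.76% of all genes, with a log2 fold change of 1.5 ± 1.18. The other 9 members lay between -0.11 (Atf4) and 0.91 (Chac1).

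MYC-OE against WT asks what MYC does in tubular cells, and these groups differ by Cre and by the floxed Setd2 allele as well. No member was called by edgeR, DESeq2 or limma-voom, where 7.99% of all genes were called by edgeR, 26.4% by DESeq2 and 4.06% by limma-voom. At an unadjusted p under 0.05, Trib3 and Chac1 were higher and Ddit3 was lower, which is 3 of 10, against 36% of all genes. Libraries did not overlap for 6 members, Trib3 and Chac1 being higher and Hspa5, Pdia4, Dnajb9 and Ddit3 lower, against 50.6% of all genes. The median over the members was -0.19, beside 0 over all genes. In a fit of these 2 groups alone, 4 members passed the threshold (Dnajb9, Ddit3, Trib3 and Chac1), where 31.7% of all genes did. With plain library totals, Hspa5, Pdia4, Dnajb9, Atf4 and Ddit3 turned from negative to positive, and 3 of the 10 members (Sdf2l1, Xbp1 and Trib3) passed the threshold, where 29.7% of all genes did.

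MYC-OE Setd2-KO against MYC-OE asks what loss of Setd2 does in cells that overexpress MYC. No member was called by edgeR or limma-voom, where edgeR called 0.176% of all genes. DESeq2 called 2 members, Sdf2l1 and Ddit3, and 4.49% of all genes. At an unadjusted p under 0.05, Ddit3, Herpud1 and Dnajb9 were higher and Sdf2l1 lower, which is 4 of 10, against 12.9% of all genes. Libraries did not overlap for Dnajb9 and Ddit3, against 12.5% of all genes. The median over the members was 0.58, beside 0.05 over all genes. Trib3 and Chac1 changed sign when MYC-OE Setd2-KO 3 was left out, to -1.92 and -0.17.

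**Figure D4:**
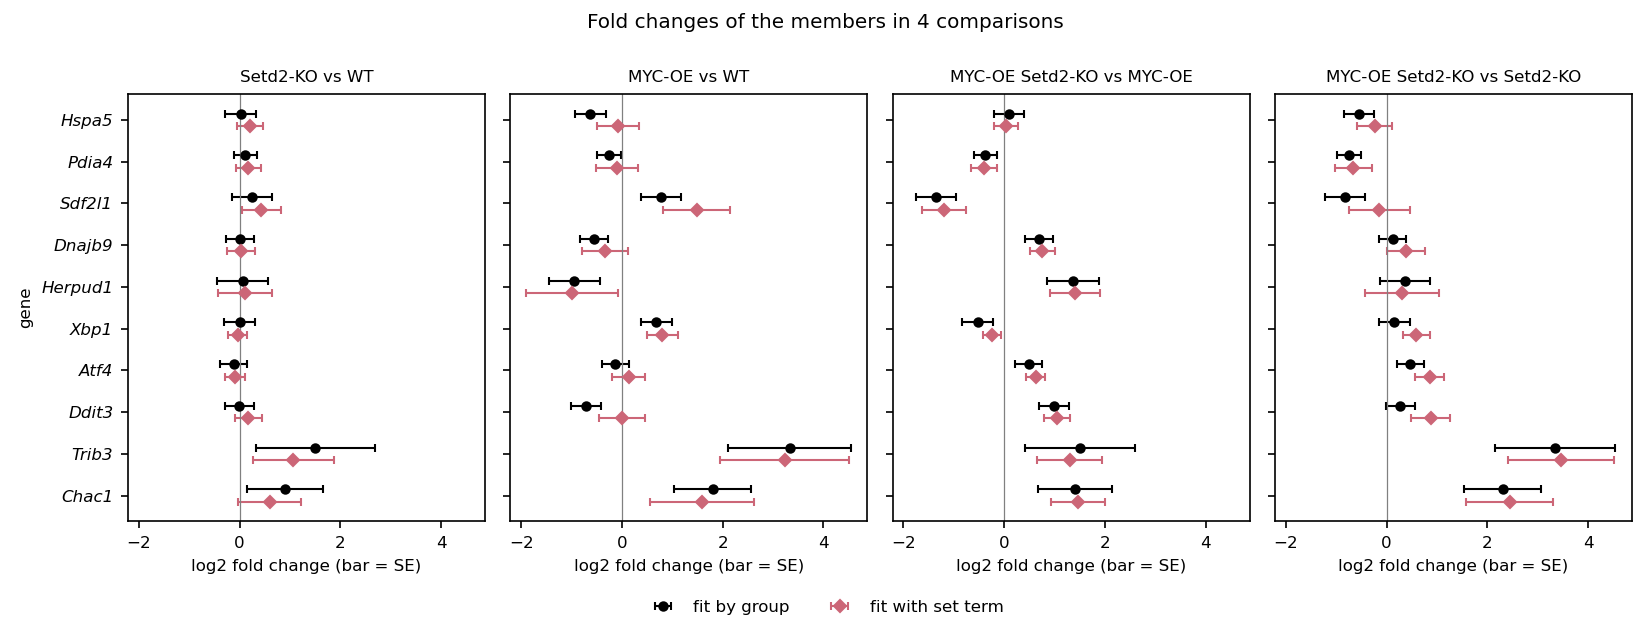
Log2 fold changes of the 10 genes in 4 comparisons, with bars of 1 SE, from the fit by group (circles) and the fit with a term for the 3 sets of libraries (diamonds). Bars of Trib3 are the longest in each panel, and Ddit3 in MYC-OE Setd2-KO against MYC-OE is the only value past the threshold, in the fit with the set term (1.04).

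MYC-OE Setd2-KO against Setd2-KO asks what MYC does in cells without Setd2. No member was called by edgeR, DESeq2 or limma-voom, where 0% of all genes were called by edgeR and 1.04% by DESeq2. Trib3 and Chac1 were higher and Pdia4 lower at an unadjusted p under 0.05, which is 3 of 10, against 9.54% of all genes. Libraries did not overlap for Atf4 (higher) and Pdia4 (lower), against 9.96% of all genes. This comparison and the one before share the MYC-OE Setd2-KO libraries, and MYC-OE Setd2-KO 3 enters both.

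The interaction asks whether the effect of Setd2 loss differed with MYC. It was not called for any member by edgeR, DESeq2 or limma-voom, where 0.0118% of all genes were called by edgeR and 1.57% by DESeq2. At an unadjusted p under 0.05 it was positive for Ddit3 (0.98 ± 0.42) and negative for Sdf2l1 (-1.60 ± 0.56), both with an edgeR adjusted p of 0.484, against 10.2% of all genes. For Trib3 it was 0.008 (edgeR adjusted p = 1), and -3.44 ± 0.87 without MYC-OE Setd2-KO 3 (edgeR adjusted p = 0.109).

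Other genes of these pathways were read from 5 lists with 134 genes, of which 132 were tested. In MYC-OE against WT, 6 rose and 4 fell, which is 7.58% of those tested and close to the 7.99% of all genes. Among 31 ATF4 and CHOP targets, 3 rose and 0 fell, and whether called or not, 19 had a positive value and 12 a negative one. Asns, the asparagine synthetase, rose by a log2 fold change of 3.67 ± 0.89 (edgeR adjusted p = 0.0447), from 1.84 to 2.33 CPM in WT to 16.8, 30.9 and 31.4 CPM in MYC-OE. Phgdh, which starts serine synthesis from glycolysis, rose by 2.64 ± 0.34 (edgeR adjusted p = 0.033), and Nupr1, a stress-induced nuclear protein, by 2.24 ± 0.30 (edgeR adjusted p = 0.033). Neither overlapped between WT and MYC-OE: Phgdh stood at 4.18 to 6.92 CPM in WT and 29.1 to 45.7 CPM in MYC-OE, and Nupr1 at 8.84 to 13.1 CPM and 38.9 to 69.5 CPM. The median over this list was 0.73 in MYC-OE against WT, beside 0 over all genes.

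Among 27 ER chaperones and folding enzymes, 1 rose: Txndc5, a disulfide isomerase, by 1.02 ± 0.27 (edgeR adjusted p = 0.0473), with 89.3 to 105.4 CPM in WT and 136.4, 234.6 and 232.4 CPM in MYC-OE. The chaperone Calr, which was not called, had a value of -0.87 ± 0.45 (edgeR adjusted p = 0.18) and of 0.116 with the set term. The disulfide isomerase P4hb, also not called, had -0.40 ± 0.31 (edgeR adjusted p = 0.353). The median of the list was -0.40, and -0.08 with the set term. Of 25 genes of ER-associated degradation, Derl3, a channel component that is abundant in secretory cells, rose by 3.23 ± 0.84 (edgeR adjusted p = 0.0476), and the ubiquitin ligase gene March6 fell, by a log2 fold change of -1.27 ± 0.31 (edgeR adjusted p = 0.0447). Derl3 stood at 0.949 CPM in MYC-OE 1, inside the WT range of 0.512 to 1.06 CPM, and at 11.4 and 9.09 CPM in MYC-OE 2 and MYC-OE 3, the pair that was high in Igj.

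Of 29 genes of the translocon, glycosylation and export, Sec62 (-1.21 ± 0.29), Tram1 (-1.04 ± 0.27) and Ssr1 (-0.67 ± 0.17) fell, with edgeR adjusted p from 0.0444 to 0.0466. Their products help to carry new proteins into the ER. Sec62 stood at 580.7 to 604.7 CPM in WT and at 302.8, 247.5 and 224.0 CPM in MYC-OE. Sec61g, a subunit of the translocon, rose by 4.38 ± 1.16 (edgeR adjusted p = 0.0483) from 0.109 to 0.195 CPM in WT, but was -0.34 with the set term. Ssr1 turned to 0.11 with plain library totals. Of 20 sensors and regulators, 0 were called; Tmbim6, an inhibitor of cell death in the ER membrane, had a value of -1.11 ± 0.51 and Ppp1r15b, a subunit of an eIF2 alpha phosphatase, -0.52 ± 0.25 (edgeR adjusted p = 0.146 and 0.151). With the set term, Nupr1 was the only gene of these 10 that stayed called (edgeR adjusted p = 0.0346). The adjusted p was then 0.0646 for Phgdh, 0.073 for Derl3, 0.0832 for Asns, 0.096 for March6, 0.117 for Sec62 and 0.228 for Txndc5, and Tram1 and Ssr1 stood at -0.21 and -0.25 (0.789 and 0.618). Without any 1 of the WT libraries, or without MYC-OE 2 or MYC-OE 3, 0 of the wider genes were called, and 1 to 3 genes in all. Without MYC-OE 1 there were 31 of 132, where 24.8% of all genes were called.

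In the other 4 comparisons edgeR and limma-voom called 0 of the 132 genes. DESeq2 called 3 in MYC-OE Setd2-KO against MYC-OE and 3 in MYC-OE Setd2-KO against Setd2-KO, beside 4.49% and 1.04% of all genes, and 0 in the rest. At an unadjusted p under 0.05 there were 4 in Setd2-KO against WT (3.03%, beside 2.91% of all genes) and 12 in MYC-OE Setd2-KO against MYC-OE (9.09%, beside 12.9%). There were 18 in MYC-OE Setd2-KO against Setd2-KO (13.6%, beside 9.54%) and 8 in the interaction (6.06%, beside 10.2%).

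**Figure D5:**
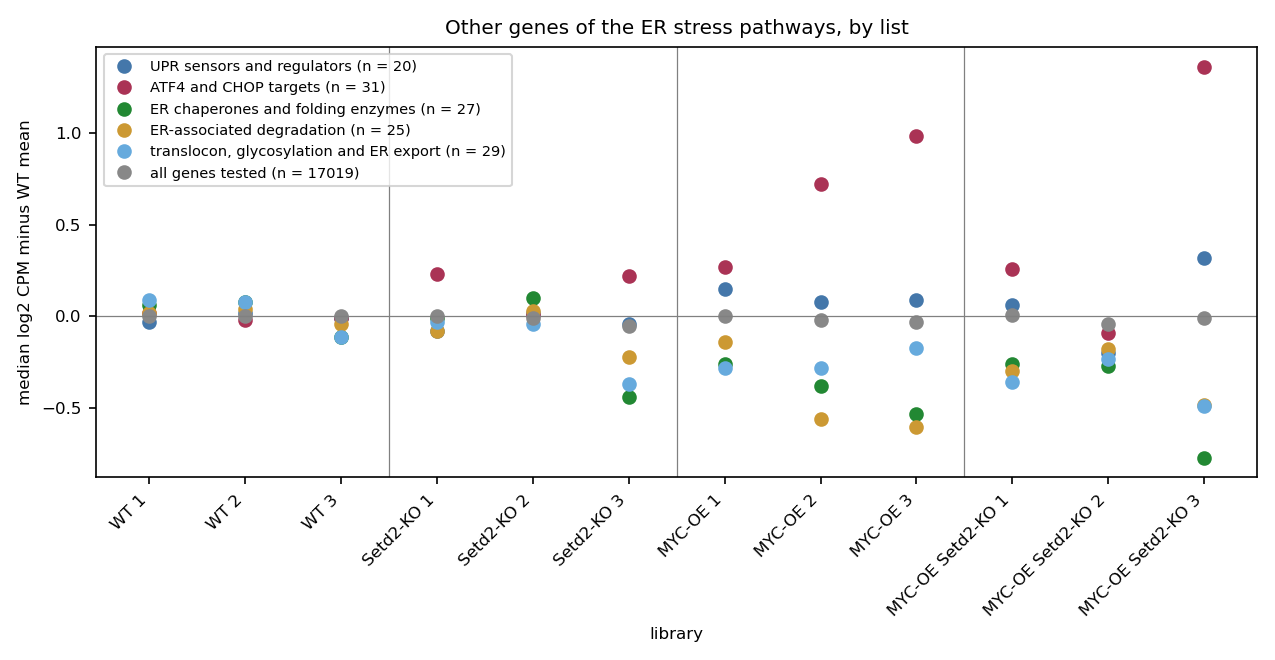
Median difference from the WT mean (log2 of TMM-scaled CPM plus 0.1) over each of 5 lists of other ER stress pathway genes and over all genes tested, 1 point per list and library. ATF4 and CHOP targets stand at 0.72 and 0.98 in MYC-OE 2 and MYC-OE 3 and at 1.36 in MYC-OE Setd2-KO 3, where ER chaperones stand at -0.77.

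Levels of these lists also varied between libraries of a genotype. In MYC-OE Setd2-KO 3 the median difference from the WT mean was 1.36 over the ATF4 and CHOP targets and -0.77 over the ER chaperones, beside -0.01 over all genes. In that library Atf4, Ddit3, Trib3 and Chac1 were at their highest while Pdia4 and Sdf2l1 were at their lowest. The other MYC-OE Setd2-KO libraries stood at 0.26 and -0.09 for the ATF4 and CHOP targets and at -0.26 and -0.27 for the chaperones. A list of 10 genes that tissue dissociation is known to raise held immediate early genes and the heat shock genes Hspa1a, Hspa1b and Dnajb1. The list stood at 879.3 summed CPM in MYC-OE Setd2-KO 3 and 485.3 in MYC-OE Setd2-KO 1, against 157 to 234 in WT, with none at 0. Its part in the levels of the ATF4 targets was not tested.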

How the data were processed

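The authors deposited 1 table of raw read counts, as whole numbers per gene symbol, for the 12 libraries. Poly(A) RNA was made into directional libraries, per the labels' protocols. Trimmomatic 0.35 and cutadapt 1.9.1, HISAT2, StringTie, FastQC and MACS2 2.1.1 are listed with GRCm38 and mm10 in the submitters' processing notes. The sources used here do not give the counting program, its strand setting or the annotation release. The design text counts 3 mice per genotype, and libraries were treated as separate animals. No libraries within a group were close enough to be 1 library (smallest median chi-square 1.92, against 0.45 from sampling noise).

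These counts were tested in R 4.3.3 with edgeR 4.0.16: TMM scaling (factors 0.7897 to 1.499), filterByExpr (17019 genes kept), 1 fit of all 12 libraries with a coefficient per group (8 residual degrees of freedom), the quasi-likelihood F test and Benjamini-Hochberg adjustment over all genes tested. A gene is called at an adjusted p under 0.05. SE is the absolute log2 fold change over the root of F, and is not given where the fold change is near 0 at low counts. A term for the 3 sets lowered the biological coefficient of variation from 0.575 to 0.272. The step from the first set to the others in that term rests on Setd2-KO 3 alone. The scripts were tested on simulated data. P-values set a difference of 3 against 3 libraries beside a spread estimated over all 12 libraries. An exact permutation test of 3 against 3 could not go below 0.1. DESeq2 1.42.0, limma-voom (limma 3.58.1), other scalings and filters, a replicate block, fits within the sets and leaving out each library were alternatives. Deviations of same-numbered libraries correlated at -0.6 to 0.683, and 6 of 12 libraries correlated best with one of their own number. Nothing in the labels says that equal numbers share a litter or day, so the numbers were not taken to pair the libraries.

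The members and lists were chosen with earlier results of these data known. All 10 members are named, and from each list of other pathway genes up to 4 with the largest absolute log2 fold change among those called in MYC-OE against WT, or, where under 2 were called, the 2 with the highest mean log2 CPM. Genes named in the closing section for their levels by set were chosen after their values were seen.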

Additional observations from a re-analysis of the deposited data

How the results depend on the processing

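Of 818 values of the 10 members under other settings, 714 kept their sign and their side of the threshold, 32 passed it only there, and 72 changed sign with neither value past it. Setd2-KO against WT and the interaction stayed at 0 called members and 0 called wider genes under every setting run. Of all genes, DESeq2 called 0.335% in the first and 1.57% in the second. In MYC-OE against WT, 3 members were called with plain library totals, 4 in a fit of those 2 groups and 0 to 2 with 1 library left out. These counts leave out the fit without the third set, where MYC-OE 1 is alone in its group and Trib3 had a value of 2.32. In MYC-OE against WT, 10 wider genes were called by group (7.99% of all genes). The count was 37 with DESeq2 (26.4% of all genes), 5 with limma-voom (4.06%), 45 with plain library totals (29.7%) and 4 with no filter on low counts (3.21%). It was 43 in the fit of those 2 groups (31.7%), 21 with the replicate block (13.4%), 3 with the set term (2.39%) and 0 to 31 with 1 library left out. Of the 3 with the set term, only Nupr1 was among the 10. In MYC-OE Setd2-KO against MYC-OE, members called were 2 with DESeq2, 1 with the set term and 0 to 2 with 1 library left out. Members were also called within the third set, in a fit that leaves MYC-OE Setd2-KO 3 alone in its group. Wider genes called were 3 with DESeq2, 6 with the set term, 1 within the second set, 83 within the third set, 3 without it and 0 to 3 with 1 library left out. In MYC-OE Setd2-KO against Setd2-KO, 9 members were called within the third set, and wider genes called were 3 with DESeq2, 13 with the set term, 79 within the third set and 0 to 2 with 1 library left out. The fits within the third set take the spread from MYC-OE 2 and MYC-OE 3 for the lone libraries and called 10188 and 9649 of 17872 genes. Sec61g reversed to -0.336 with the set term and Ssr1 to 0.108 with plain library totals. Apart from the constructions named, the cause of these shifts was not tested. Same-numbered libraries correlated at -0.6 to 0.683 in their deviations and other pairs at -0.699 to 0.659; 6 of 12 libraries correlated best with one of their own number, and the replicate block changed no other call of members. Depth limits Trib3 and Chac1 most, with 3 to 8 and 6 to 19 reads per WT library.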

Other observations

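Other genes of the response differed between the sets of libraries, and they were picked after their values were seen. In 5 of the wider genes, every library of the third set stood more than 5 times above every library of the first set, and this held for 0 of the 10 members. The share of all genes with this pattern was not counted, so these counts do not set genes of the response apart from others. Manf, which encodes a secreted survival factor induced by ER stress, stood at 50.7 to 70.5 CPM in the 4 libraries of the third set, at 0.458 to 0.938 CPM in the first set and at 0.105 to 0.757 CPM in the second. Dnajc3, an inhibitor of PERK, stood at 103 to 224 CPM in the third set and at 2.18 to 4.85 CPM in the first. Bfar stood at 26.9 to 36.7 CPM against 0.0546 to 0.195 CPM, and Ube2g2, a ubiquitin-conjugating enzyme of ER-associated degradation, at 27.9 to 62.8 CPM against 1.47 to 2.76 CPM. The positions in the table overlap those of another gene for each of these 4. Setd2-KO 3, the library of the third set without MYC, stood with that set in these 4 genes. Sec61g, which overlaps no other gene, had another pattern, with 1.37 to 3.61 CPM in the third set, 3.63 to 3.8 CPM in the second and 0.106 to 0.195 CPM in the first. The libraries of the second set all carry MYC, and the first set and the third set each hold libraries of more than 1 genotype.

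Further genes of the lists, which no comparison called in the fit by group, were highest in MYC-OE Setd2-KO 3 and were likewise picked after their values were seen. Ddit4, an inhibitor of mTORC1, stood at 339 CPM there, at 62.7 and 72.6 CPM in MYC-OE 2 and MYC-OE 3, at 47.3 CPM in Setd2-KO 3, and at 6.80 to 8.36 CPM in WT. Atf3, a transcription factor induced by stress and by dissociation, stood at 79.8 CPM there and at 0.598 to 1.47 CPM in WT. It stood at 11 CPM in MYC-OE Setd2-KO 1 and at 1.89 CPM in MYC-OE Setd2-KO 2. In MYC-OE Setd2-KO against Setd2-KO its log2 fold change with the set term was 5.85. As Atf3 was picked by values of the same libraries, no p-value is given. Ppp1r15a, which encodes the stress-induced subunit of the eIF2 alpha phosphatase, stood at 71.3 CPM there and at 11.8 to 15.1 CPM in WT. The cystine transporter gene Slc7a11 stood at 11 CPM there, at 3.30 and 3.41 CPM in MYC-OE 2 and MYC-OE 3, and at 0.0391 to 0.109 CPM in WT. In the same library the chaperone Hsp90b1 was at its lowest, 358 CPM against 593 to 1010 CPM in WT.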
